A study of Arabidopsis thaliana with 6 samples.

Results

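EXPA7 (AT1G12560) and EXPA18 (AT1G62980) are alpha-expansin genes of Arabidopsis thaliana that are known for their expression in root hair cells. They were taken as the genes to which the array's probe-to-gene table assigns those symbols and which have 1 probe set each, 2 of 13355 genes named with a probe set of their own. Neither probe set carries the suffix that marks probes shared between genes, and both locus codes lie on chromosome 1. The question was how these 2 genes differ in roots given gold, and whether the other EXPA and EXPB genes on the array differ with them.

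RNA came from roots of the Col 0 ecotype, grown hydroponically in sterile jars for 14 days and hybridised to 6 Affymetrix ATH1 arrays. Gold arrays (n = 3) came from jars whose medium was exchanged for 0.125 mM KAuCl4, a soluble gold(III) salt, at pH 5.7, and no gold arrays (n = 3) from jars that the sample labels call untreated and the design text calls water-treated. The labels give 24 h of exposure and the treatment protocol gives 6 h, so the time is not settled. Rafts carried many plants, so 1 array is a pool of roots.

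Expansins are secreted proteins that let the wall of a growing plant cell yield under turgor, by loosening the contacts between cellulose and other wall polymers without cutting them. A root hair is a tubular outgrowth of a single epidermal cell that lengthens at its tip, and it is known to need local wall loosening when the bulge forms and while the tip grows. EXPA7 and EXPA18 are known in Arabidopsis as the alpha-expansins that are switched on in hair cells, under the control of basic helix-loop-helix regulators of the RHD6 group.

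The deposited values are on a logarithmic scale read as log2 and were centred, so that each probe set has a median of 0 over the 6 arrays. A value therefore says how far an array lies from the middle of the 6 for that gene, and levels cannot be compared between genes. With 6 arrays the centring also makes the middle pair of values of every gene equal in size and opposite in sign. Because levels are gone, the presence of root hair or root markers could not be checked, only their differences between arrays. The array of no gold replicate 1 stood apart. For the actin control transcript, signal at the 5' end minus signal at the 3' end was -4.89 there (log2, centred), against -1.02 on gold replicate 2 and -0.21 to 0.38 on the other 4 arrays. For GAPDH the same difference was -2.55 there, against -0.21 on gold replicate 2 and -0.02 to 0.03 on the other 4. Low 5' signal, below, means a low value of this difference, and gold replicate 2 was much nearer to the other arrays than no gold replicate 1 was.

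Both root hair expansins fell with gold, by about the same amount. The 3 gold arrays had EXPA7 values of -0.56, -1.56 and -1.32 (replicates 1 to 3), against 0.56, 1.73 and 1.29 on the no gold arrays. For EXPA18 the gold arrays had -0.49, -1.77 and -1.38, against 0.49, 1.45 and 1.48 on the no gold arrays. In both genes every gold value lay below every no gold value, as in 21.6% of all probe sets. The replicate 1 arrays were the nearest to the middle in either group. The gap between the nearest arrays of the groups was 1.12 for EXPA7 and 0.99 for EXPA18 on the log2 scale.

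**Figure D1:**
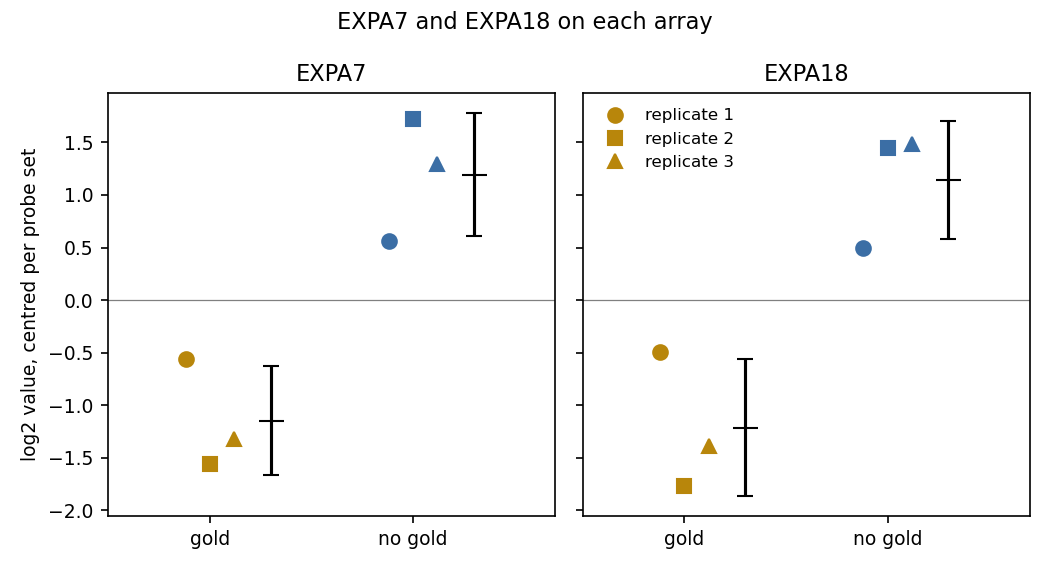
Centred log2 values of EXPA7 (left) and EXPA18 (right) on each array, gold beside no gold, with the marker shape giving the replicate number and the black bar the mean ± SD of 3 arrays. The gold arrays lie between -1.77 and -0.49 and the no gold arrays between 0.49 and 1.73, with no overlap in either gene. Of all probe sets, 21.6% had every gold value below every no gold value.

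EXPA7 averaged -1.15 ± 0.52 with gold and 1.19 ± 0.59 without (centred log2, SD, n = 3 each). Its change, gold minus no gold, was -2.34 ± 0.35 (SE; 95% confidence interval -3.16 to -1.52; limma adjusted p = 0.00305 over 22746 probe sets), which is a level 5.07-fold lower with gold. EXPA18 averaged -1.22 ± 0.65 with gold and 1.14 ± 0.56 without, a change of -2.36 ± 0.38 (95% confidence interval -3.24 to -1.47; limma adjusted p = 0.00428) or 5.12-fold lower. Of all probe sets tested, 10.9% fell by the same test. A more negative change than that of EXPA7 was found for 221 probe sets (0.972%) and than that of EXPA18 for 218 (0.958%). In whole roots, fewer hair cells and less of each RNA per hair cell cannot be told apart.

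Both calls needed the shared estimate of variance that limma takes from the whole table. An exact two-sided permutation test over the 6 arrays gave p = 0.1 for each gene, the smallest that 3 against 3 allows. When each probe set was tested with its own variance alone, neither passed (adjusted p = 0.0628 for EXPA7 and 0.0728 for EXPA18), by a test under which 4.46% of probe sets were lower. Both passed limma's treat test, which asks for a change beyond 1.5-fold and called 3.33% of probe sets lower (adjusted p = 0.0128 for EXPA7 and 0.0176 for EXPA18). Without the array of no gold replicate 1 the changes were -2.66 for EXPA7 and -2.68 for EXPA18 (limma adjusted p = 0.00228 and 0.00351). With gold replicate 2, the next lowest in 5' signal, left out as well, they were -2.45 and -2.40 (limma adjusted p = 0.00221 and 0.00254).

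**Figure D2:**
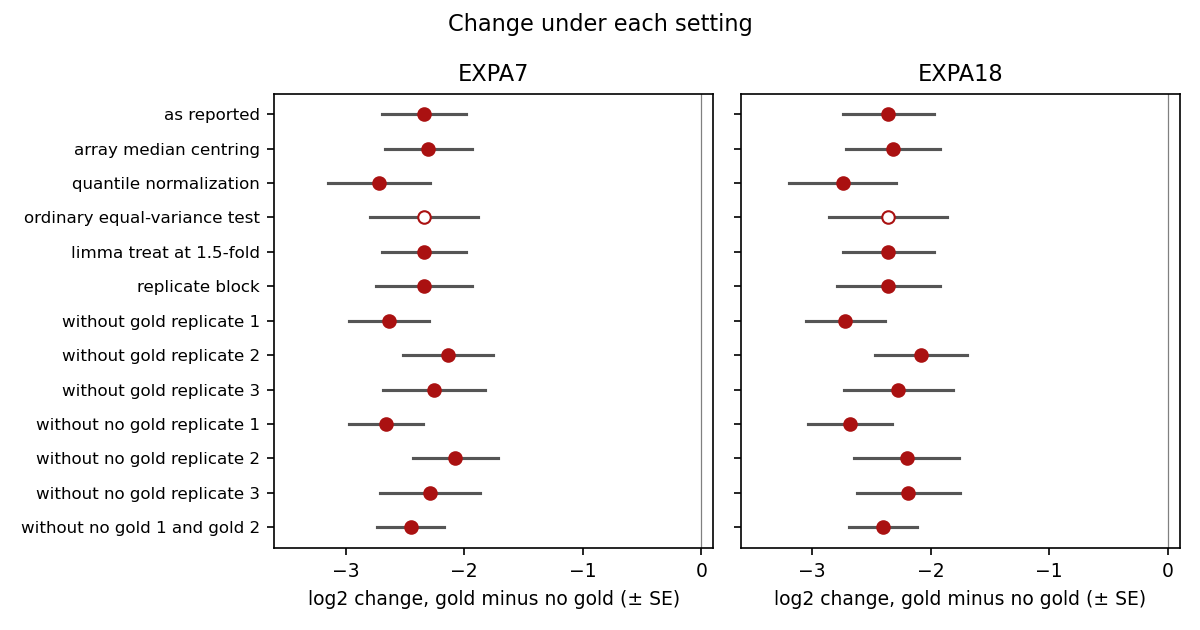
Log2 change, gold minus no gold, with its standard error for EXPA7 (left) and EXPA18 (right), as reported and under each alternative setting. Filled points passed an adjusted p of 0.05 and open points did not; the test with each probe set's own variance (ordinary equal-variance test) is the open one, and all changes lie between -2.74 and -2.07.

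EXPA7 and EXPA18 lay close together on every array. The difference EXPA18 minus EXPA7 was 0.07, -0.21 and -0.06 on the gold arrays, against -0.07, -0.28 and 0.19 on the no gold arrays, so the centred values of the pair never lay more than 0.28 apart. Their responses to gold differed by -0.02 on the log2 scale (95% confidence interval -0.45 to 0.42, from the spread of the per-array differences; exact two-sided permutation p = 1). The interval still allows the 2 responses to differ by up to about 0.45 on that scale. Over the 6 arrays the root mean squared difference between the 2 profiles was 0.167. None of the other 13353 named genes lay nearer to EXPA7 than EXPA18 did, and none lay nearer to EXPA18 than EXPA7 did. The median distance of all named genes from EXPA7 was 1.26.

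The genes whose profiles came next were picked by the smallest root mean squared difference from the mean profile of the pair. They were AT2G43880 (0.201), AT5G44020 (0.202), AT5G06270 (0.205), AT1G73600 (0.219), AT3G49960 (0.245), AT4G27400 (0.252), AT5G47980 (0.288) and AT5G45480 (0.297), all of which the annotation used here gives by locus code alone. As the distance includes the difference between groups, these genes necessarily fell by a like amount, from -2.55 for AT5G47980 to -1.96 for AT5G45480, and their changes are given as a description. AT2G43880, the nearest, had -0.36, -1.75 and -1.18 on the gold arrays and 0.36, 1.47 and 1.03 on the no gold arrays. Its order within the gold group was that of the pair, with replicate 1 the highest and replicate 2 the lowest, which the choice by distance favours. Of the genes listed, AT3G49960 and AT5G47980 had replicate 3 the lowest, and the others kept the order of the pair.

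The 4 named genes taken around the pair did not pass the test. The nearest named genes on either side of each expansin in the TAIR10.1 gene table were taken, a choice added after the data were seen. AT1G12570, directly next to EXPA7, was at 0.05 ± 0.14 (SE, n = 3 and 3; limma adjusted p = 0.878), with gold values from -0.02 to 0.11 and no gold values from -0.10 to 0.09. CCS, a copper chaperone gene and the nearest named one on the other side, 4 genes away, was at 0.70 ± 0.27 (limma adjusted p = 0.119). For EXPA18 the nearest named genes were AT1G62970, 3 genes away, and AT1G63010, 4 genes away on the other side. They were at -0.29 ± 0.18 and -0.05 ± 0.14 (limma adjusted p = 0.33 and 0.881). AT1G62970 had every gold value below every no gold value, as had 21.6% of all probe sets. CCS had the opposite order, for which no share was counted. None of these 4 genes passed with limma or on its own variance. Of them 1, CCS, had an unadjusted limma p below 0.05, a threshold at which the share of all probe sets was not counted.

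The rest of the expansin family was covered in part. Of 30 EXPA and EXPB genes in the gene table, 14 had a probe set of their own, EXPA7 and EXPA18 included, and 2 further probe sets were each shared by a pair of genes. The remaining 16, EXPA1 among them, were not analysed here as single genes. Of the 12 other measured members, 1 fell, none rose and 11 did not pass, where 10.9% of all probe sets fell and 9.32% rose, so the share that fell was near that of the whole array. At an unadjusted limma p below 0.05 the count was 2 lower and 0 higher. The share of all probe sets at that looser threshold was not counted. The test on each probe set's own variance, called the ordinary test from here on, passed none in either direction. Their median change was 0.02, against -0.04 over all probe sets.

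EXPB3, a beta-expansin, was the one that fell. Its gold values were -0.16, -0.91 and -0.17, against 0.16, 2.46 and 1.74 on the no gold arrays. The groups did not overlap, but the nearest arrays lay only 0.33 apart and no gold replicate 1 sat far below its fellows. Its change was -1.87 ± 0.54 (SE, n = 3 and 3; limma adjusted p = 0.0454). The call was lost without any 1 of the arrays other than no gold replicate 1 (limma adjusted p from 0.0646 to 0.141), after centring each array on its median (0.0585) and with limma's treat (0.206). Without no gold replicate 1 it was -2.52 (limma adjusted p = 0.00273).

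EXPB2 was the only other expansin without overlap between groups, with -0.33, -0.02 and -0.24 on gold arrays and 0.29, 0.49 and 0.02 on no gold arrays. Its change of -0.47 ± 0.18 did not pass (limma adjusted p = 0.116). Non-overlap in this direction was seen in 2 of the 12 other expansins and in 21.6% of all probe sets. EXPB1, with the next lowest p, was at -1.22 ± 0.61 (limma adjusted p = 0.223), and its groups overlapped.

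**Figure D3:**
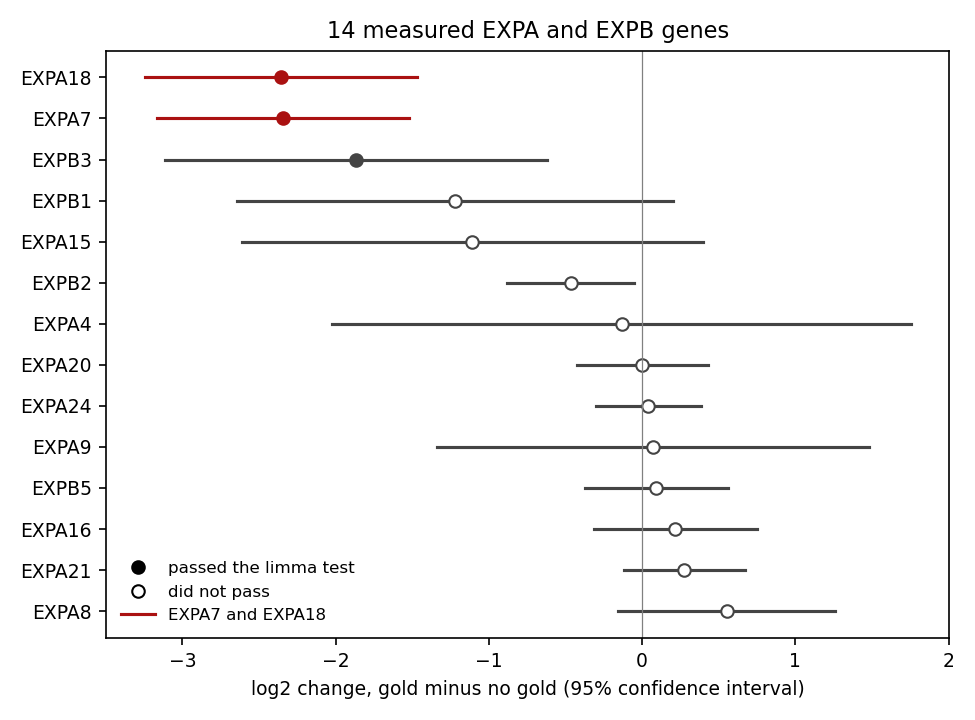
Log2 change, gold minus no gold, with 95% confidence interval for the 14 measured EXPA and EXPB genes, ordered by change from EXPA18 at the top to EXPA8 at the bottom. EXPA18, EXPA7 and EXPB3 passed the limma test, and the intervals of EXPB1, EXPA15, EXPA4 and EXPA9 are wide.

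The alpha-expansins other than the pair had changes of either sign, none of which passed with all arrays. The lowest was that of EXPA15, at -1.11 ± 0.65 (SE, n = 3 and 3; limma adjusted p = 0.303), and its groups overlapped. EXPA4 was at -0.13 ± 0.81, EXPA9 at 0.07 ± 0.61, EXPA20 at 0.00 ± 0.18, EXPA24 at 0.04 ± 0.15, EXPA16 at 0.22 ± 0.23 and EXPA21 at 0.28 ± 0.17, and the beta-expansin EXPB5 was at 0.09 ± 0.20. EXPA8 had the highest change of the family, 0.55 ± 0.31 (limma adjusted p = 0.271), with gold values of 0.49, -0.20 and 0.97 and no gold values of 0.17, -0.17 and -0.41. The shared probe sets were at 0.02 ± 0.15 for EXP26 with EXPA22 and at 0.08 ± 0.16 for EXPA25 with EXPA23. Whether these genes are weakly expressed in roots cannot be read from centred values.

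EXPA4, EXPA9, EXPA15 and EXPB1 had another pattern, singled out after their values were seen. Each had its 2 lowest values on no gold replicate 1 and gold replicate 2, the arrays with the lowest 5' minus 3' control values, as did 9.91% of all named genes. EXPA4 had -0.29, -1.03 and 0.29 on gold arrays and -2.30, 1.01 and 0.65 on no gold arrays. Over the 4 genes, gold replicate 2 averaged -1.36 and the other gold arrays 0.02 each, while no gold replicate 1 averaged -1.38 and the other no gold arrays 1.04 and 0.81. EXPA7 and EXPA18 had their lowest no gold value on no gold replicate 1 as well, though still above every gold value. The part of RNA quality in these values was not tested.

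The calls on the other expansins differed with the arrays used. Without no gold replicate 1, 3 of the 12 other expansins fell, EXPB3, EXPB1 at -1.90 (limma adjusted p = 0.0256) and EXPA15 at -1.81 (limma adjusted p = 0.0416), and none rose, where 11.9% of all probe sets fell and 9.46% rose. EXPA4 was at -1.18 there and did not pass (limma adjusted p = 0.0701). Without gold replicate 2 as well, EXPB1 (-1.45, limma adjusted p = 0.00368), EXPA15 (-1.29, limma adjusted p = 0.00216) and EXPB3 were lower and EXPA8 was higher (1.02, limma adjusted p = 0.0158), where 11.8% of all probe sets fell and 9.94% rose. The count of other expansins that fell with gold was thus 1 with all arrays and 3 without no gold replicate 1, and it was 0 when any other single array was left out. EXPA7 and EXPA18 fell in each of these fits.

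**Figure D4:**
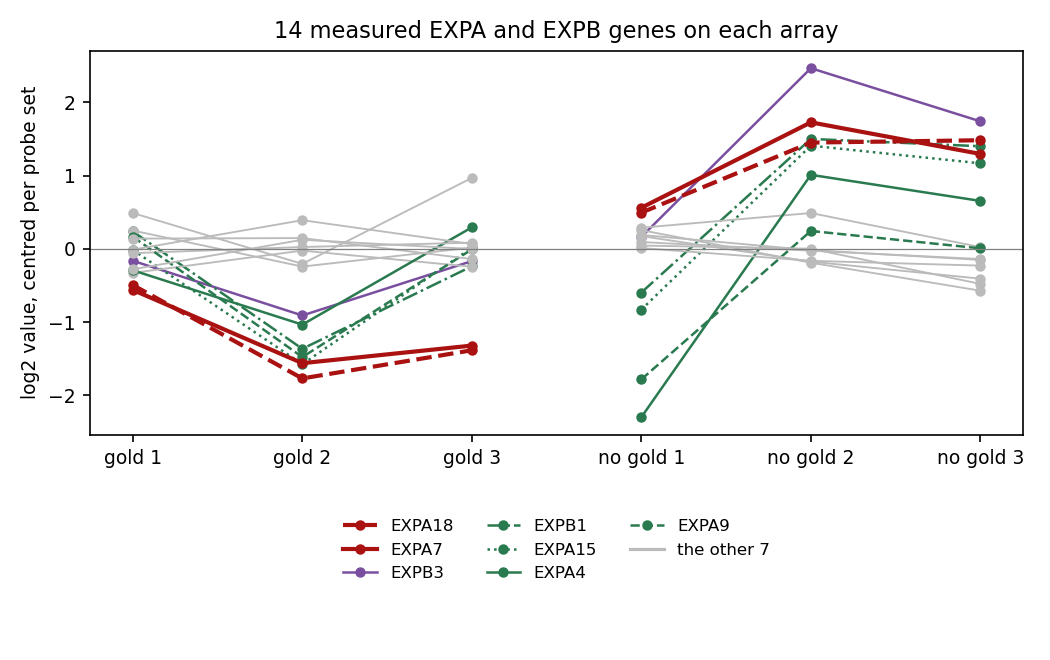
Centred log2 values of the 14 measured EXPA and EXPB genes on each of the 6 arrays, with 1 line per gene and group to guide the eye. EXPA7 and EXPA18 run together, below 0 on all gold arrays and above 0 on all no gold arrays, whereas EXPA4, EXPA9, EXPA15 and EXPB1 drop on gold 2 and no gold 1.

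The pair was then set against the rest of the family on each array. EXPA7 minus the median of the 12 other expansins was -0.55, -1.34 and -1.33 on the gold arrays, against 0.49, 1.60 and 1.36 on the no gold arrays. The difference between groups was -2.22 on the log2 scale (95% confidence interval -3.41 to -1.04; exact two-sided permutation p = 0.1, the smallest possible). For EXPA18 the gold arrays had -0.48, -1.54 and -1.39 and the no gold arrays 0.42, 1.33 and 1.55, a difference of -2.24 (95% confidence interval -3.56 to -0.91; exact two-sided permutation p = 0.1). A p of 0.1 is above 0.05, so this design cannot show by permutation that the pair differs from the family, although all 6 arrays keep the groups apart.

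Root hair genes outside the expansins are background for the pair. Of 51 genes on 3 lists (fate and initiation regulators, tip growth machinery, cell wall proteins), 8 had a probe set of their own, and the bulk of the lists, RHD6, RSL4 and RBOHC among them, was not analysed here. Of the 8, 4 fell, none rose and 4 did not pass, where 10.9% of all probe sets fell and 9.32% rose. Their median change was -1.27. The lists were chosen with earlier results of these data known, so the counts are a description and not a test of the lists. At an unadjusted limma p below 0.05, 5 were lower and none higher. The share of all probe sets at that looser threshold was not counted, so the 10.9% is no background for it. The ordinary test called 2 lower and none higher, where it called 4.46% of all probe sets lower. With 1 array left out, limma called 4 or 5 of the 8 lower, and in those fits it called 1258 to 2717 of the 22746 probe sets lower.

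All 4 that fell belong to the cell wall list. Of its 23 genes, only these 4 had a probe set of their own by the annotation used here. As 8730 tested probe sets had no name, the array may hold others of that list. XTH26, a xyloglucan-modifying enzyme of root hairs, had -0.96, -1.15 and -1.59 on gold arrays against 0.96, 2.21 and 2.23 on no gold arrays, a change of -3.03 ± 0.36 (limma adjusted p = 0.000952). AT3G01190, AT1G30870 and AT4G26010, entered in the list as class III peroxidases of root hair cells, were at -3.04 ± 0.39, -2.53 ± 0.36 and -1.95 ± 0.39 (limma adjusted p = 0.00132, 0.00237 and 0.0111). XTH26, AT3G01190 and AT1G30870 thus had changes more negative than those of EXPA7 and EXPA18, and that of AT4G26010 was less negative; these differences between genes were not tested.

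Of the 4 list genes that did not pass, all of them regulators or growth machinery, 3 are given here. TRY, a small MYB protein of epidermal patterning, was at -0.58 ± 0.29 and FER, a receptor kinase needed for root hair growth, at 0.13 ± 0.25 (limma adjusted p = 0.23 and 0.806). AT2G14760, entered as a relative of RHD6, was at 0.02 ± 0.15.

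**Figure D5:**
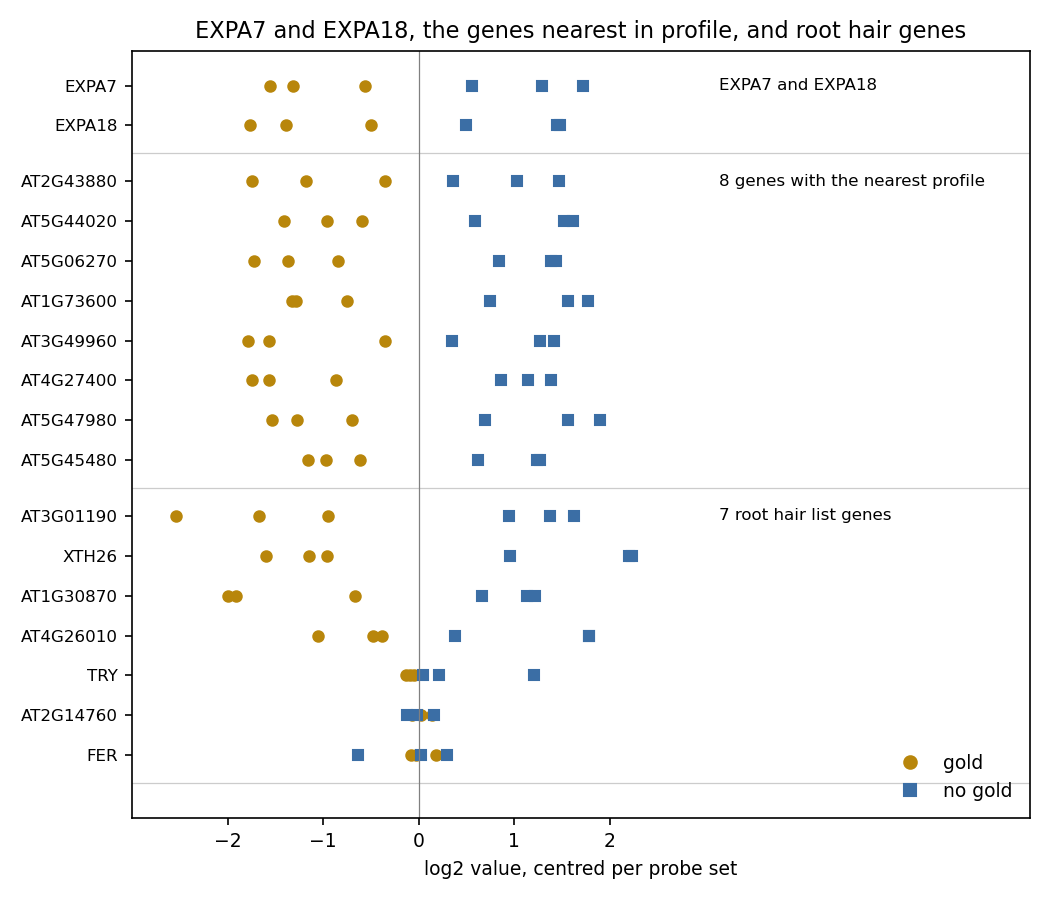
Centred log2 values on the 3 gold arrays (circles) and the 3 no gold arrays (squares) for EXPA7 and EXPA18, for the 8 genes with the nearest profile, and for 7 of the 8 measured root hair list genes ordered by change. The 4 cell wall genes at the top of the last block are separated between groups as EXPA7 and EXPA18 are. TRY, which did not pass, is separated too, while FER and AT2G14760 overlap. Of all probe sets, 21.6% had every gold value below every no gold value.

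Markers of other root cell types and of shoot were thinly covered and some moved with the pair. By the same test 10.9% of all probe sets fell, and these lists too were chosen with earlier results known. Of 6 listed genes of the root tip meristem, 2 had a probe set of their own. Both fell, AUR1 at -0.91 ± 0.16 and AUR2 at -1.47 ± 0.28 (limma adjusted p = 0.00676 and 0.00798). The mean centred value of these 2 genes ranged from -0.80 to -0.32 on gold arrays and from 0.45 to 0.77 on no gold arrays. Of 4 listed shoot genes, 2 had a probe set of their own. The Rubisco activase gene RCA fell (-1.49 ± 0.23, limma adjusted p = 0.00305) and PRK was at -1.48 (limma adjusted p = 0.0737). The mean of these 2 ranged from -0.75 to -0.28 on gold arrays and from 0.50 to 1.68 on no gold arrays. SWEET11, the 1 measured of 3 phloem genes (-0.81), and CR4, the 1 measured of 4 root cap genes (-0.54), did not pass (limma adjusted p = 0.0758 and 0.0641). Markers of non-hair epidermis, endodermis and xylem were not analysed here. The part of cell composition in the fall of EXPA7 and EXPA18 was not tested.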

How the data were processed

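Per the file itself, the deposited table holds log2 values (base not stated and read as 2) of 22810 probe sets on 6 arrays, centred per probe set so that each row's median is 0 within 1e-06. Per the labels' protocols, RNA was biotin-labelled with a MessageAmp II kit. How probes were summarised and how arrays were scaled is not given in the sources used here, so sizes of change in dim genes may be off, and a filter on low values could not be run.

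Without the 64 control probe sets, 22746 remained and were fitted with limma 3.58.1 in R 4.3.3 (lmFit, eBayes, gold minus no gold, two-sided, Benjamini-Hochberg, threshold 0.05). Of 14016 annotated probe sets, 13513 carried 1 gene, 503 carried several, and another 8730 tested probe sets had no name here; 13436 matched the TAIR10.1 gene table, used for names and gene order. A gene with several probe sets kept the one without a shared-sequence suffix, then the lowest ID. Named genes were the pair, the expansins that passed and the lowest p among the others, up to 4 passing members of each list by size or the one with the lowest p, and the 8 nearest profiles; TRY, FER, AT2G14760, PRK and the remaining expansins are named beyond that rule, to give more of the measured members. The values of 1 measured tip growth gene, which entered every list count, are not reported here. Members and lists were chosen with earlier results of these data known. The planned promoter search was not run, as promoter and protein sequences were not used here. The fit was tested on simulated data. Alternatives were array median centring, quantile normalization, the ordinary equal-variance test, treat at 1.5-fold, a block for the replicate number, leaving out each array and, added after seeing the data, both arrays with low 5' signal left out. Differences between genes were tested by exact permutation of the arrays in Python 3.11.15 with numpy 2.4.6 and pandas 2.3.3. The number of arrays limits the precision.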

Additional observations from a re-analysis of the deposited data

How the results depend on the processing

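EXPA7 and EXPA18 kept their direction under every setting run and lost their call with the ordinary test alone, whose estimates are the same (-2.34 and -2.36); it does not pool the spread. Leaving out each array gave -2.66 to -2.07 for EXPA7 and -2.72 to -2.08 for EXPA18. Same-numbered arrays deviated together with correlations of -0.11, -0.25 and 0.28, so the numbers were not taken to pair the jars; with the replicate block both expansins passed (limma adjusted p = 0.0129 and 0.0157) and no other expansin fell (0). The response of EXPA18 minus that of EXPA7 ranged from -0.13 to 0.10 with arrays left out, positive without gold replicate 2 (0.05) or no gold replicate 3. The other expansins that fell numbered 0 after array median centring, with the ordinary test and with treat, 0 to 3 with 1 array left out, and 3 without both arrays of low 5' signal, where 1 rose. The ordinary test left 2 of the root hair list genes lower. Over all probe sets it gave 922 higher and 1015 lower, treat gave 968 and 757, and leaving out an array gave 1262 to 2432 higher and 1258 to 2717 lower. The cause of these differences between settings was not tested.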

Other observations

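The expansin-like genes, relatives of the expansins for which wall loosening has not been shown, went both ways with gold; they were looked at after the data were seen. EXLB1 rose, with 1.60, 0.81 and 1.63 on gold arrays against -1.03, -0.81 and -0.81 on no gold arrays, a change of 2.23 ± 0.24 (SE, n = 3 and 3; limma adjusted p = 0.000633). Its size is close to that of EXPA7 and EXPA18 with the opposite sign. EXLA3 also rose, with 0.31, 2.21 and 0.64 on gold arrays against -0.31, -0.84 and -0.75 on no gold arrays (1.69 ± 0.46, limma adjusted p = 0.0367), but the call was lost when gold replicate 3 or any 1 of the no gold arrays was left out (limma adjusted p from 0.0531 to 0.112), and with the replicate block (limma adjusted p = 0.0517), limma's treat (0.2) and the ordinary test (0.185). EXLA2 fell by 1.00 (limma adjusted p = 0.014), a call lost without gold replicate 3, no gold replicate 2 or no gold replicate 3 (limma adjusted p up to 0.0669) and also with treat (0.336) and the ordinary test (0.0826). EXLA1 was at -0.26 ± 0.21 and did not pass. The groups did not overlap in the 3 that changed. By the same limma test, 10.9% of all probe sets fell and 9.32% rose. In 21.6% of all probe sets every gold value lay below every no gold value, and the share with the opposite order was not counted.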
